A study of Mus musculus with 11 samples.

Results

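The genes described here were the 7 cyclin-dependent kinase (CDK) inhibitors of the CIP/KIP and INK4 families, taken from a table of 35056 mouse genes. The 3 CIP/KIP genes were Cdkn1a, Cdkn1b and Cdkn1c, and the 4 INK4 genes were Cdkn2a, Cdkn2b, Cdkn2c and Cdkn2d. They were chosen by family membership, with no measured value in the rule. All 7 passed the filter on low counts. The cells were KP1, a mouse small cell lung cancer (SCLC) line that is mutant for Rb and p53, and every library came from this same line in culture. Control libraries (replicates 2 and 3) came from untreated cells, and irradiated libraries (replicates 1, 2 and 3) from cells collected 24 h after 5 Gy of radiation. The labels do not say whether the replicates were separate cultures, so the p-values measure the spread between these 5 libraries, which may be technical.

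CDK inhibitors hold cells out of the division cycle. INK4 proteins bind Cdk4 and Cdk6 and keep them from their D-type cyclins, which leaves the Rb protein active as a brake on S phase entry. CIP/KIP proteins bind cyclin-CDK complexes more broadly, with Cdk2 complexes as their best-known targets. Cdkn1a, which encodes p21, is a classic target of p53 after DNA damage, and Cdkn2a encodes both an INK4 protein and, from another first exon, the Arf protein, which blocks the p53 antagonist Mdm2. KP1 cells carry mutations in both genes that these pathways converge on.

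The libraries held 21185956 to 31036317 estimated reads. The neuroendocrine markers fitted the labelled cell type: all 9 of 9 were above 1 TPM in every library. TPM is a relative transcript level scaled for transcript length and library total. In bulk libraries, fewer cells of a type and less RNA per cell cannot be told apart. Markers of other cells were low, and all but the fibroblast list differed between the groups without overlap. Of all single tested genes, 59.4% also did not overlap, in scaled read counts. The 6 leukocyte markers summed to 4.55 to 6.91 TPM in control and 1.19 to 1.62 TPM in irradiated libraries, mostly Cd68. The 5 fibroblast markers summed to 13.6 TPM in control replicate 2, mostly Col1a1, to 0.176 TPM in control replicate 3 and to 0.148 to 0.311 TPM in irradiated libraries, with Col3a1 at 0, and the 3 endothelial markers to 1.28 to 1.55 and 0.314 to 0.524 TPM. The 4 general epithelial markers summed to 11.3 to 18.6 and 24.8 to 58.5 TPM, and the 3 alveolar markers to 3.05 to 7.71 and 10.8 to 12.6 TPM. The libraries also differed in the transcripts that their reads came from: averaged over reads, transcript length was 3625 to 3998 bases in irradiated cells, compared with 5463 bases for control replicate 2 and 4729 bases for control replicate 3. The part of these marker differences in the results below was not tested; for length, values with an offset are given. Control replicate 2 lay farther from the irradiated libraries in mean transcript length than control replicate 3. With 2 controls, which of them is unusual cannot be told. With all 5 libraries, 3613 genes were called across the genome. Fewer were called without control replicate 2 and more without control replicate 3, each a fit with 1 control left.

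Of the 7 genes, Cdkn1a and Cdkn2a rose and Cdkn2b fell after irradiation, while the other 4 did not pass the test. The call was an adjusted p under 0.05 in edgeR's quasi-likelihood test over 14106 genes, at which 25.6% of all tested genes were called, 12.7% as higher and 13.0% as lower. Against that background, 3 of 7 genes called, 2 higher and 1 lower, is a small count. With a log2 fold change past 1.5 also required, 1 of the 7 was called, Cdkn2b, beside 3.53% of all tested genes (1.63% in the higher and 1.90% in the lower direction). The groups did not overlap in CPM, the read count scaled to library size, for 5 of the 7 genes, but 59.4% of all tested genes had this property. The median log2 fold change over all tested genes was 0.02.

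**Figure D1:**
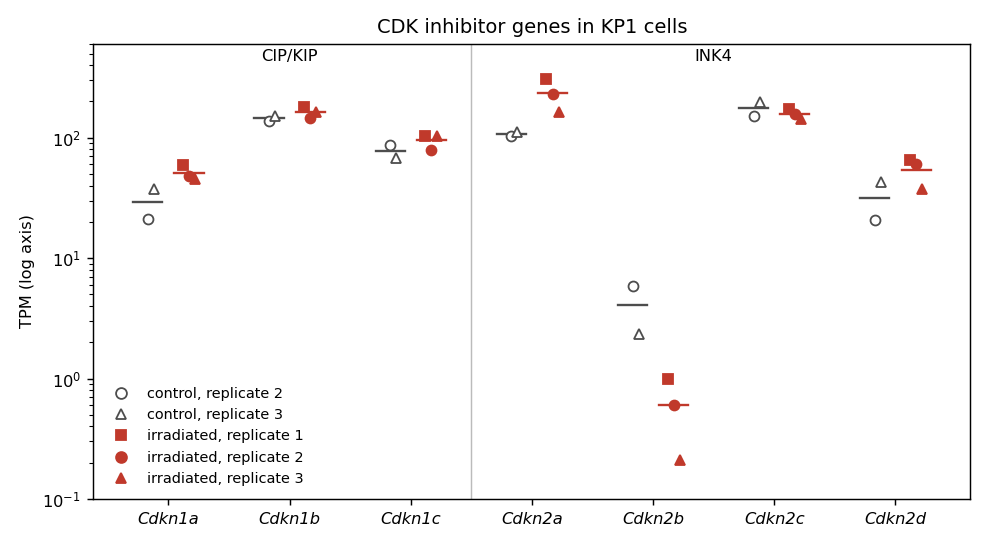
Level of each CDK inhibitor gene in each library, in TPM on a log axis, with control libraries as open symbols, irradiated libraries as filled symbols and group means as bars (n = 2 and 3). Cdkn1a and Cdkn2a lie higher and Cdkn2b lower in all 3 irradiated libraries than in both controls, and Cdkn2b is the only gene under 10 TPM.

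In control cells, Cdkn2c had the highest level of the 7, at 175 ± 34.6 TPM (SD, n = 2), and Cdkn1b followed at 145 ± 11.2 TPM. The ranges of these 2 genes overlapped. Cdkn2a came next at 108 ± 6.58 TPM and Cdkn1c at 77.4 ± 13.5 TPM, each apart from its neighbours in the order. Cdkn2d, at 31.6 ± 15.6 TPM, and Cdkn1a, at 29.1 ± 11.6 TPM, overlapped. Cdkn2b was lowest at 4.11 ± 2.48 TPM. In irradiated cells (n = 3) the order changed at the top. Cdkn2a was first at 233 ± 71.5 TPM, with a range that overlapped Cdkn1b at 163 ± 16.01 TPM, which in turn overlapped Cdkn2c at 158 ± 14.4 TPM. Cdkn1c at 95.3 ± 14.4 TPM, the overlapping pair of Cdkn2d at 54.1 ± 14.5 TPM and Cdkn1a at 51.3 ± 7.44 TPM, and Cdkn2b at 0.598 ± 0.389 TPM kept their places. Among all 35056 genes ordered by mean TPM, Cdkn2a moved from rank 1722 to rank 570 and Cdkn2b from rank 11041 to rank 13253.

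Cdkn1a encodes p21, the inhibitor most often used as a readout of p53 activity. The gene spans 29090976 to 29100727 on the plus strand of chromosome 17 (GRCm38). Its level was 20.9 and 37.3 TPM in control replicates 2 and 3 and 59.7, 48.5 and 45.6 TPM in irradiated replicates 1, 2 and 3. All 3 irradiated libraries were above both controls, and the controls differed from each other by more than control 3 differed from the lowest irradiated library. The ratio of the mean TPM, irradiated over control, was 1.76. In the count test Cdkn1a rose 2.18-fold. Its log2 fold change was 1.12 (SE 0.26, 95% CI 0.53 to 1.71, adjusted p = 0.0192 by edgeR, n = 2 and 3). Without control replicate 2 the log2 fold change was 0.79 with an adjusted p of 0.0888, and without irradiated replicate 1 it was 1.00 with an adjusted p of 0.0587. With an offset for transcript length it was 0.82 and the call was lost (adjusted p = 0.0579).

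The annotation gives Cdkn1a 2 main start regions, a proximal start at 29093769 and a distal start near 29090979. The promoter sequences were read from the RefSeq promoter table on GRCm38.p6, which matched 6 of the 7 genes and held 2 windows for Cdkn1a. The 250 bases before the distal start are shown because they hold a sequence with 1 mismatch to the p53 response element, marked in capitals, 2841 bases upstream of the proximal start.

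Cdkn1a, chr17:29090729-29090978, plus strand: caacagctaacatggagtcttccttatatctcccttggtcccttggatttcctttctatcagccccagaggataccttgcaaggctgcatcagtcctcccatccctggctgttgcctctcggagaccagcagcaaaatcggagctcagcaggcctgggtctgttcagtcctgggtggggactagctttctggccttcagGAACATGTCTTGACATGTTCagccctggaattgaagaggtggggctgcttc

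The search used the p53 consensus of 20 bases with no spacer and allowed at most 1 mismatch. A sequence this close was present in 29 of 32851 promoter windows of 300 bases (0.0883%), and in none of the other windows of the CDK inhibitor genes. A match describes letters only. Transcripts from the distal start were not detected: Cdkn1a-202 and Cdkn1a-204 each had 0 reads in all 5 libraries, below a floor of 3 reads. Cdkn1a-201, from the proximal start, held 88.8% and 99.4% of the gene's TPM in control replicates 2 and 3 and 100%, 99.8% and 100% in irradiated replicates 1, 2 and 3. The rest of control replicate 2 was assigned to Cdkn1a-203, at 5.83%, and Cdkn1a-205, at 5.33%. A gene on the minus strand, AC167363.2, overlaps Cdkn1a, and the first exon of Cdkn1a-201, of 93 bases, lies within it. The sources used here do not say whether strand was used in counting.

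Cdkn1b encodes p27, an inhibitor of Cdk2 complexes that is controlled largely through protein turnover. It lies on the plus strand of chromosome 6, from 134920401 to 134925513. Its level was 137 and 153 TPM in control replicates 2 and 3 and 178, 146 and 165 TPM in irradiated replicates 1, 2 and 3. The groups overlapped in TPM, since irradiated replicate 2 lay below control replicate 3. The log2 fold change was 0.33 (SE 0.15, 95% CI -0.01 to 0.67, adjusted p = 0.133 by edgeR). It was 0.15 with the transcript length offset and 0.52 with the effective length offset, and neither passed the test.

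The division of the gene's reads between its transcripts did not pass the test of share, and its values are given for each library. Cdkn1b-201, of 2393 bases, removes an intron after the stop codon, and Cdkn1b-202, of 4552 bases, keeps it; both carry the same coding length of 591 bases. The share of Cdkn1b-202 in the gene's TPM was 37.0% and 31.5% in control replicates 2 and 3 and 23.0%, 22.3% and 23.5% in irradiated replicates 1, 2 and 3. The irradiated shares lay together below both controls. Cdkn1b-201 stood at 86.2 and 103 TPM in control and 137, 110 and 126 TPM in irradiated libraries, and Cdkn1b-202 at 50.6 and 48.1 TPM in control and 40.9, 32.6 and 38.7 TPM in irradiated libraries. The change in share was a log2 value of -0.44 for Cdkn1b-202 and 0.35 for Cdkn1b-201, both with an adjusted p of 1.00 in edgeR's test of each transcript against the others of its gene. In the count test of each transcript, the log2 fold change of Cdkn1b-202 was 0.11 (SE 0.14, adjusted p = 0.721 by edgeR), unlike its lower TPM. That of Cdkn1b-201 was 0.90 (SE 0.17, adjusted p = 0.0898 by edgeR). The shorter transcript had the larger share in libraries whose reads also fell on shorter transcripts as a whole. The part of that difference was not tested.

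Cdkn1c encodes p57, a CIP/KIP inhibitor of imprinted expression that is linked to the exit from division during development. It lies on the minus strand of chromosome 7, from 143458339 to 143461050. Its level was 86.9 and 67.9 TPM in control replicates 2 and 3 and 104, 78.7 and 103 TPM in irradiated replicates 1, 2 and 3. The groups overlapped, and the log2 fold change of 0.35 (SE 0.23, 95% CI -0.17 to 0.88) did not pass the test (adjusted p = 0.276 by edgeR). Without control replicate 2 it was 0.80, and without control replicate 3 it was 0.04. With all libraries it was 0.02 with the transcript length offset, 0.08 with the GC content offset and 0.64 with the effective length offset (adjusted p = 0.0507).

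The transcripts of Cdkn1c differed between the controls as well. Cdkn1c-201 had 64.4 and 23.7 TPM in control replicates 2 and 3, and 42.3, 32.1 and 47.9 TPM in irradiated replicates 1, 2 and 3. Cdkn1c-205 had 9.53 and 25.0 TPM in control and 36.1, 26.2 and 30.4 TPM in irradiated libraries. The irradiated levels of Cdkn1c-201 lay between the controls, and those of Cdkn1c-205 lay above both, the lowest of them close to control replicate 3. Cdkn1c-204, a transcript with a retained intron, had 0 reads in both controls and 12.5, 9.07 and 18.97 estimated reads in irradiated replicates 1, 2 and 3. It held under 5% of the gene's TPM in every library and was named with its values in view. Its share had an adjusted p of 0.297 in edgeR's test of share. With 0 reads in both controls, it passed the filter only through the irradiated libraries. The direction of that test was therefore set beforehand, and nothing is drawn from it. An antisense gene, Gm44732, overlaps Cdkn1c, and its longest sequence match to the main Cdkn1c transcript was 422 bases. Whether strand was used in counting is not given in the sources used here.

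Cdkn2a carries 2 proteins in 1 gene. It spans 89274471 to 89294653 on the minus strand of chromosome 4. Its level was 103 and 112 TPM in control replicates 2 and 3 and 306, 229 and 163 TPM in irradiated replicates 1, 2 and 3. The controls lay close together, every irradiated library was above both, and the irradiated libraries themselves differed widely. The ratio of the mean TPM, irradiated over control, was 2.16. In the count test Cdkn2a rose 2.61-fold, with the smallest p of the 7 genes. Its log2 fold change was 1.39 (SE 0.26, 95% CI 0.78 to 1.99, adjusted p = 0.0116 by edgeR). Without control replicate 2 the log2 fold change was 1.37 with an adjusted p of 0.0645. With the transcript length offset it was 0.91 (adjusted p = 0.0561), so the call was lost and the value moved by more than its SE.

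Cdkn2a-202 starts at 89294653 and encodes Arf, and Cdkn2a-201 starts 12461 bases nearer the shared exons, at 89282192, and encodes the INK4 protein p16. Their first exons hold 190 and 126 coding bases. The sequences across the join of each first exon with the shared exon (89276645 to 89276985) are shown because the reading frame differs there, with the shared exon in capitals, read 5′ to 3′ from the GENCODE transcripts.

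Cdkn2a-201: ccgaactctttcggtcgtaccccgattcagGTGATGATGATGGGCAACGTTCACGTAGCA
Cdkn2a-202: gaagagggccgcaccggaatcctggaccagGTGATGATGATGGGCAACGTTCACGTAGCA

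The bases of the shared exon are identical, but the first exon of Cdkn2a-201 ends after 42 whole codons, whereas that of Cdkn2a-202 ends after 63 whole codons and 1 further base. The shared exon is therefore read in another frame. Reads within the shared exons cannot be assigned to a transcript from their own sequence, so the levels of the transcripts rest on reads that touch the first exons or the transcript ends.

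Arf transcripts made up most of the gene's level. Cdkn2a-202 had 93.1 and 96.5 TPM in control replicates 2 and 3 and 259, 195 and 138 TPM in irradiated replicates 1, 2 and 3. Cdkn2a-201 had 10.1 and 15.9 TPM in control and 47.1, 34.6 and 25.0 TPM in irradiated libraries. Both transcripts were higher in every irradiated library than in both controls. The p16 transcript held 9.77% and 14.1% of the gene's TPM in control and 15.4%, 15.1% and 15.3% in irradiated libraries. At the transcript level the log2 fold changes were 1.56 (SE 0.32) for Cdkn2a-202 and 1.95 (SE 0.46) for Cdkn2a-201, with adjusted p of 0.0944 and 0.108 by edgeR over 40440 transcripts. The share of Cdkn2a-201 changed by a log2 value of 0.34 with an adjusted p of 1.00, so a shift between the transcripts was not detectable with these libraries.

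Of the promoter windows, the one before the Arf start held an E2F element, shown here in capitals; E2F factors drive S phase genes and are held in check by Rb.

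Cdkn2a, chr4:89294701-89294728, minus strand: tctgggaagcTTTCCCGCgcgactgggg

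The words searched on both strands were TTTCCCGC, TTTCGCGC, TTTGCCGC and TTTGGCGC. At least 1 was present in 744 of 32851 windows (2.26%), and none in the p16 window or in the windows of Cdkn1a, Cdkn1b, Cdkn2b, Cdkn2c and Cdkn2d.

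Cdkn2b encodes p15, an INK4 protein known as a target of TGF-β signaling. It is the neighbour of Cdkn2a, 11646 bases away on the same strand, at 89306299 to 89311039. It was the least abundant of the 7 genes, with 102 and 37 reads in control replicates 2 and 3 and 18, 10 and 4 reads in irradiated replicates 1, 2 and 3. In TPM these were 5.87 and 2.35 against 0.987, 0.598 and 0.209. The groups did not overlap, and control replicate 2 was more than 2 times control replicate 3. The ratio of the mean TPM, irradiated over control, was 0.145. In the count test Cdkn2b fell to 0.178 of the control level. The fall was 2.49 on the log2 scale (SE 0.74, 95% CI -4.21 to -0.80, adjusted p = 0.0414 by edgeR). This call rested on the set of libraries. Without control replicate 2 the log2 fold change was -1.63 (adjusted p = 0.275), without irradiated replicate 1 -3.06 (0.0537), without irradiated replicate 2 -2.52 (0.0999) and without irradiated replicate 3 -2.06 (0.0780). The summed leukocyte and endothelial markers were also higher in both controls than in every irradiated library. As given above, the fibroblast sum was high in control replicate 2 alone, and the epithelial and alveolar sums were lower in both controls. A part of such cells in the fall of Cdkn2b was not tested.

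Cdkn2a and Cdkn2b, the closest neighbours in the family, thus moved in opposite directions. Mtap, on the far side of Cdkn2a, had a log2 fold change of -0.12 (SE 0.17, adjusted p = 0.606), and Dmrta1, on the far side of Cdkn2b, -0.06 (SE 0.47, adjusted p = 0.939). Neither flanking gene passed the test.

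Cdkn2c encodes p18, an INK4 protein with the highest level of the family in control cells. It lies on the minus strand of chromosome 4, from 109660876 to 109667189. Its level was 151 and 199 TPM in control replicates 2 and 3 and 172, 159 and 143 TPM in irradiated replicates 1, 2 and 3. The groups overlapped. The log2 fold change was 0.07 (SE 0.17, adjusted p = 0.779 by edgeR), with a 95% CI of -0.32 to 0.46 that excludes a 2-fold change. Its sign turned with the transcript length offset (-0.08), the GC content offset (-0.16) and without control replicate 2 (-0.07). Cdkn2c-202, of 2471 bases, held 67.6% and 66.4% of the gene's TPM in control and 62.8%, 57.1% and 64.0% in irradiated libraries, and Cdkn2c-201, of 1106 bases, held the rest. The change in share had an adjusted p of 1.00.

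Cdkn2d encodes p19Ink4d, which should not be mistaken for Arf. It lies on the minus strand of chromosome 9, from 21288410 to 21291407. Its level was 20.6 and 42.7 TPM in control replicates 2 and 3 and 64.8, 60.0 and 37.6 TPM in irradiated replicates 1, 2 and 3. Irradiated replicate 3 lay below control replicate 3 in TPM, and in CPM these 2 libraries were at 25.8 and 25.5. The log2 fold change was 1.05 (SE 0.35, 95% CI 0.25 to 1.86), close to that of Cdkn1a, with an adjusted p of 0.0571 by edgeR that missed the threshold. DESeq2 gave 1.06 with an adjusted p of 0.00921, and the transcript length offset gave 0.64 with an adjusted p of 0.186. Without control replicate 3 the log2 fold change was 1.65 and without control replicate 2 it was 0.66. Cdkn2d-203 held 90.6% to 100% of the gene's TPM in the 5 libraries, and Cdkn2d-202 at most 6.35%.

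**Figure D2:**
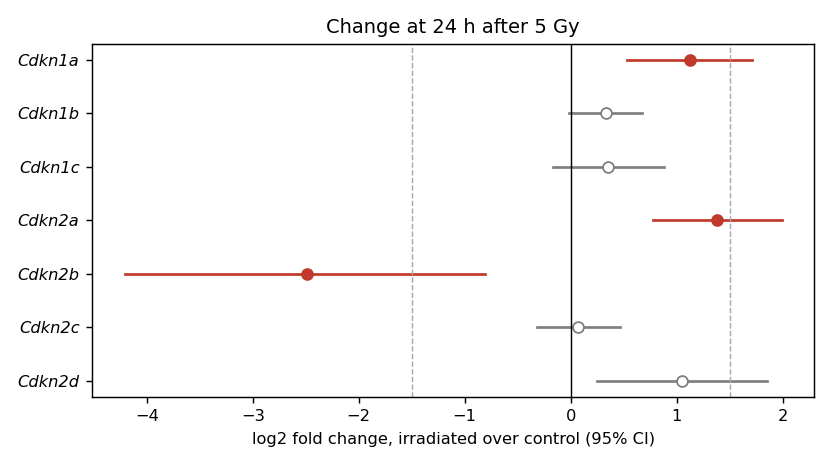
Log2 fold change of each gene, irradiated over control, with its 95% confidence interval from edgeR; filled red points have an adjusted p under 0.05, and dashed lines mark a log2 fold change of 1.5 in either direction. Cdkn1a at 1.12 and Cdkn2a at 1.39 lie on the higher side, Cdkn2b at -2.49 on the lower side with the widest interval, and Cdkn2d at 1.05 misses the threshold.

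**Figure D3:**
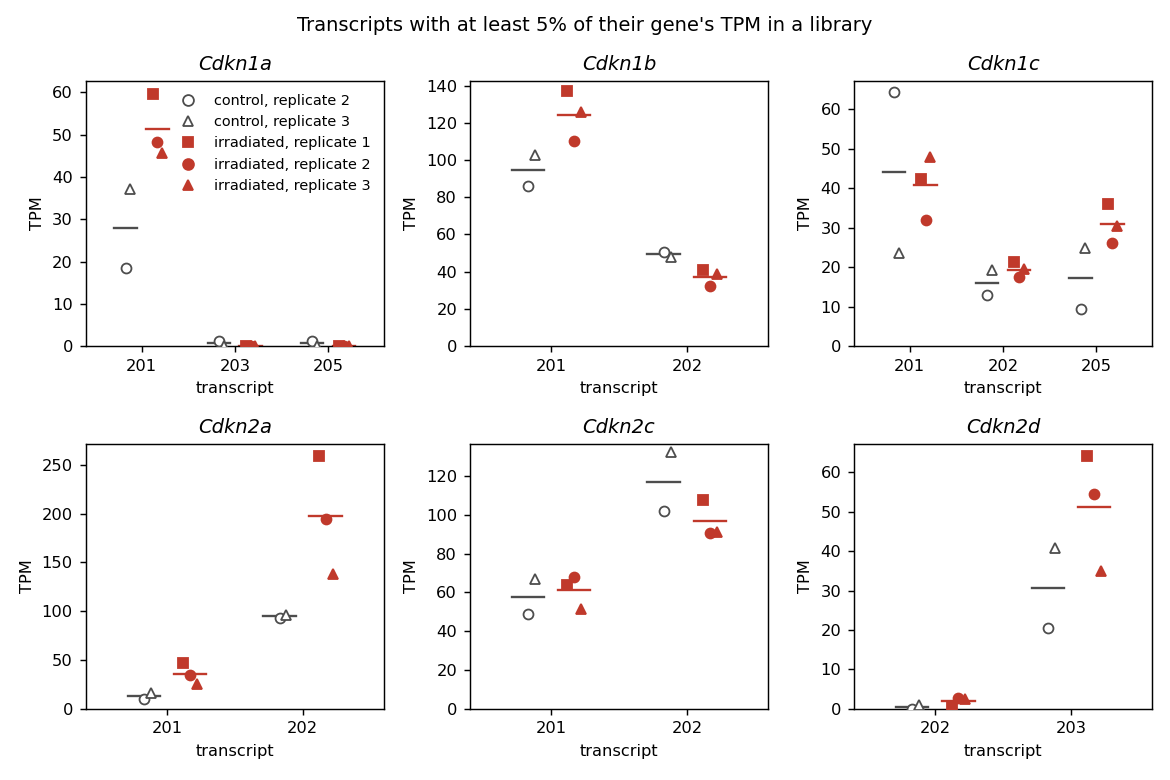
TPM of the transcripts that held at least 5% of their gene's TPM in any library, with control libraries as open symbols, irradiated libraries as filled symbols and group means as bars (n = 2 and 3). Both Cdkn2a transcripts lie higher in all irradiated libraries, and Cdkn1c-201 is spread most in control libraries. In TPM Cdkn1b-202 lies lower while Cdkn1b-201 lies higher, but the log2 fold change of Cdkn1b-202 in counts was 0.11.

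Across the family, 16 of 21 annotated transcripts passed the filter and 0 were called by edgeR at an adjusted p under 0.05, as were 0 of all 40440 transcripts tested (0%). At an unadjusted p under 0.05 there were 7 of the 16, beside 20.8% of all transcripts. In the test of share, 0 of the 14 transcripts tested were called, beside 0.652% of all 35722. At an unadjusted p under 0.05 there was 1 of the 14, beside 6.47% of all. It was Cdkn1c-204, which passed the filter only through the irradiated libraries, as given above.

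Summed by family, CIP/KIP levels were 245 and 258 TPM in control replicates 2 and 3 and 342, 273 and 314 TPM in irradiated replicates 1, 2 and 3. All irradiated sums were above both controls. INK4 levels were 280 and 357 TPM in control and 544, 449 and 344 TPM in irradiated libraries, and irradiated replicate 3 lay below control replicate 3. The difference of the mean log2 sums was 0.30 for CIP/KIP, with an SD within groups of 0.14, and 0.47 for INK4, with an SD of 0.31. The INK4 difference was 0.71 in TMM-scaled CPM per kilobase and 0.29 without control replicate 2. Without Cdkn2a, the other 3 INK4 genes together differed by 0.02. Cdkn2a made up 19.7% and 18.3% of the summed TPM of all 7 genes in control and 34.6%, 31.8% and 24.8% in irradiated libraries, whereas Cdkn2c went from 28.7% and 32.5% to 19.4%, 22.0% and 21.7%.

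The genes whose pattern over the 5 libraries was most like that of each member were found by the root mean square difference of centered log2 CPM. For Cdkn1a these were Rilpl2 (0.05), Atf3 (0.07), a transcription factor of the stress response, and Hacl1 (0.07). For Cdkn2a they were B330016D10Rik (0.06), Nxt1 (0.08), a factor of mRNA export, and Pqlc1 (0.10), and for Cdkn2d they were Gjd2 (0.06), Gpn2 (0.08) and Angptl6 (0.09). For Cdkn1b they were Fbh1 (0.01), Retreg2 (0.03) and Ppp2r1a (0.03). For Cdkn1c they were Pink1 (0.04), Csdc2 (0.05) and Sgtb (0.06), and for Cdkn2c they were Pced1a (0.02), Gpcpd1 (0.03) and Nedd1 (0.03). The nearest to Cdkn2b were much less like it, Olfr575 (0.27) and Olfr161 (0.31), which are olfactory receptor genes, and Gm18186 (0.32). How particular these matches are differed widely, as 2533 genes lay within 0.2 of Cdkn1b, 265 within 0.2 of Cdkn1a, 79 within 0.2 of Cdkn2a and 0 within 0.2 of Cdkn2b.

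Of the genes that flank the CDK inhibitors, Gpr19, an orphan receptor gene beside Cdkn1b, was called higher, with a log2 fold change of 0.89 (SE 0.27, adjusted p = 0.0456 by edgeR). Apold1, on the other side of Cdkn1b, stood at 0.89 (SE 0.41, adjusted p = 0.142). Srsf3 beside Cdkn1a had 0.44 (adjusted p = 0.0857), Rab44 beside Cdkn1a 0.18 (0.744), Faf1 beside Cdkn2c 0.01 (0.970) and Kri1 beside Cdkn2d -0.08 (0.743). Kcnq1, Slc22a18, 4930522H14Rik and Ap1m2 did not pass the filter.

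The other genes of these pathways were taken from 8 lists of partners, regulators and targets. Of their 101 tested genes, 24 were called, 14 higher and 10 lower, or 23.8%, which was near the 25.6% of all tested genes. With the transcript length offset 5 of them were called, and without control replicate 2 there were 2. The single genes below are given with that limit.

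**Figure D4:**
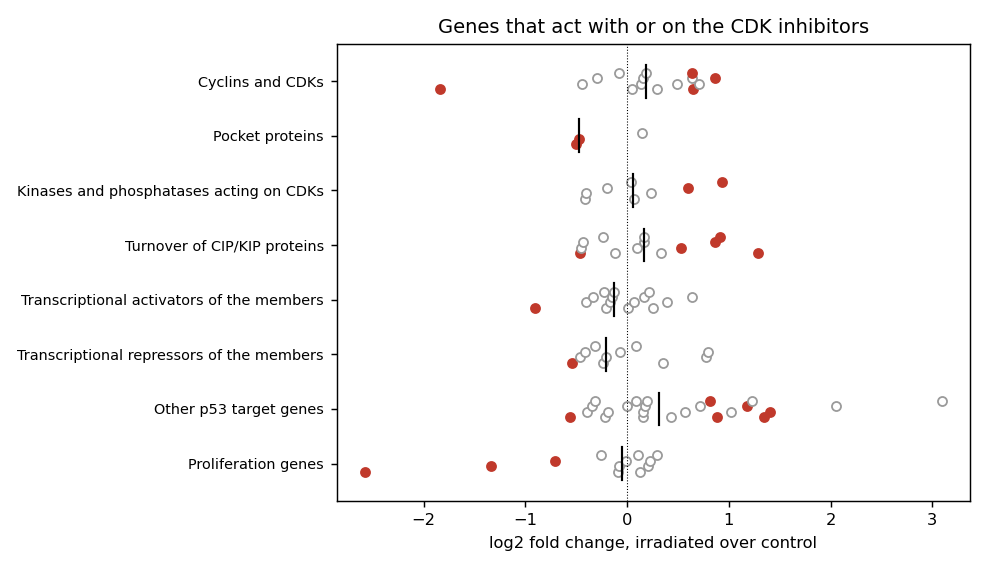
Log2 fold change, irradiated over control, of each tested gene in 8 lists of partners, regulators and targets of the CDK inhibitors; filled red points have an adjusted p under 0.05 and vertical bars are list medians. Most genes lie within 1 of no change, Mki67 at -2.57 and Cdk6 at -1.84 are the called genes farthest to the left, and Bbc3 at 1.403 is the called gene farthest to the right.

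Among the cyclins and CDKs, 3 of 15 were called higher and 1 lower, with a median log2 fold change of 0.19. The one that fell was Cdk6, a kinase that INK4 proteins bind, from 21.8 and 10.8 TPM in control replicates 2 and 3 to 2.14, 2.82 and 5.26 TPM in irradiated replicates 1, 2 and 3 (log2 fold change -1.84, SE 0.42, adjusted p = 0.0189 by edgeR). Its counterpart Cdk4 was far more abundant, at 591 and 725 TPM in control and 647, 781 and 749 TPM in irradiated libraries, which overlap. Its log2 fold change in the count test was 0.64 (SE 0.20, adjusted p = 0.0484). Mnat1 rose by 0.87 and Ccnh by 0.65 on the log2 scale; both encode partners of Cdk7 in the kinase that activates other CDKs. Ccnh overlapped in TPM between the groups. The pocket proteins, through which INK4 inhibition acts, had 2 of 3 genes called lower. They were Rbl1, with a log2 fold change of -0.50 (SE 0.15), and Rb1, with -0.47 (SE 0.14). Neither was called lower with library size scaling only, without the filter on low counts, or with the effective length, transcript length or GC content offset. The same held with the replicate block and when any of the irradiated libraries was left out. Rb1 was read at 58.1 and 65.8 TPM in control and 34.4, 32.2 and 42.1 TPM in irradiated libraries, although the line is mutant for Rb, and which exons carried the reads was not analysed here.

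Of 8 kinases, phosphatases and other proteins that act on CDKs, 2 were called higher and 0 lower, with a median log2 fold change of 0.06. They were Cdk2ap2 at 0.94 (SE 0.23) and Cdk2ap1 at 0.60 (SE 0.18), which encode proteins that bind Cdk2. Cdk2ap1 overlapped in TPM between the groups. With the transcript length offset, 0 genes of this list were called higher and 1 lower, and the GC content offset gave the same counts. Among 13 genes for the turnover of CIP/KIP proteins, 4 were called higher and 1 lower, with a median of 0.16. Cks1b, the cofactor with which Skp2 recognizes p27, rose by 1.29 on the log2 scale (SE 0.34, adjusted p = 0.0284 by edgeR), from 55.7 and 129 TPM to 189, 219 and 145 TPM. Rbx1 rose by 0.91, Pcna, to which p21 binds, by 0.86 and Skp1a by 0.53, while Cul4b fell by 0.46 on the log2 scale. Pcna overlapped in TPM between the groups.

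Of 15 transcriptional activators of the CDK inhibitor genes, 0 were called higher and 1 lower by edgeR, with a median of -0.13. The gene that fell was Sp1, with a log2 fold change of -0.90 (SE 0.17, adjusted p = 0.0108), from 91.2 and 87.9 TPM to 35.5, 23.7 and 43.0 TPM. Trp53, named here after its values were seen, had 4.01 and 7.999 TPM in control and 8.67, 8.20 and 5.67 TPM in irradiated libraries (log2 fold change 0.64, SE 0.38, adjusted p = 0.230). Of 11 repressors, 0 were called higher and 1 lower, Zbtb7a, a repressor of Arf, at -0.54 (SE 0.17), with a median of -0.21. Polycomb genes, known for silencing the Cdkn2a and Cdkn2b locus, were not called and lay on both sides of 0. On the log2 scale, Ezh2 was at -0.41, Bmi1 at -0.32, Kdm2b at -0.24, Suz12 at -0.21, Cbx7 at 0.08 and Eed at 0.35. These genes too were named with their values in view.

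Among 24 other target genes of p53, 5 were called higher and 1 lower, with a median log2 fold change of 0.31. The apoptosis gene Bbc3, which encodes Puma, rose by 1.403 on the log2 scale (SE 0.24, adjusted p = 0.00954 by edgeR), from 12.4 and 33.4 TPM in control to 67.6, 55.6 and 54.8 TPM in irradiated libraries. Phlda3 rose by 1.35, Bax by 1.18 and Trp53inp1 by 0.82, and Zmat3 fell by 0.56 on the log2 scale. In TPM, Trp53inp1 overlapped, at 22.3 and 18.01 in control and 22.3, 19.1 and 23.4 in irradiated libraries. Mdm2, the feedback regulator of p53 and the target of Arf, named after its values were seen, had a log2 fold change of 0.00 (SE 0.17, adjusted p = 0.991). The called genes of this list ran from -0.56 for Zmat3 to 1.403 for Bbc3. That range held Cdkn1a, at 1.12, and every other CDK inhibitor gene except Cdkn2b. It was built from called genes of both directions, so it is too wide to place Cdkn1a with this list or apart from it. DESeq2 called 9 of this list higher, and the transcript length offset left 2.

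Of 12 proliferation genes, 0 were called higher and 3 lower, with a median log2 fold change of -0.05. Mki67 fell by 2.57 on the log2 scale (SE 0.32, adjusted p = 0.00825 by edgeR), from 593 and 299 TPM in control to 79.4, 43.3 and 64.5 TPM in irradiated libraries. Top2a fell by 1.34 and Bub1 by 0.71. The 6 Mcm genes of the replication helicase lay between -0.09 and 0.30, and none of them was called; they were named with their values in view.

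**Figure D5:**
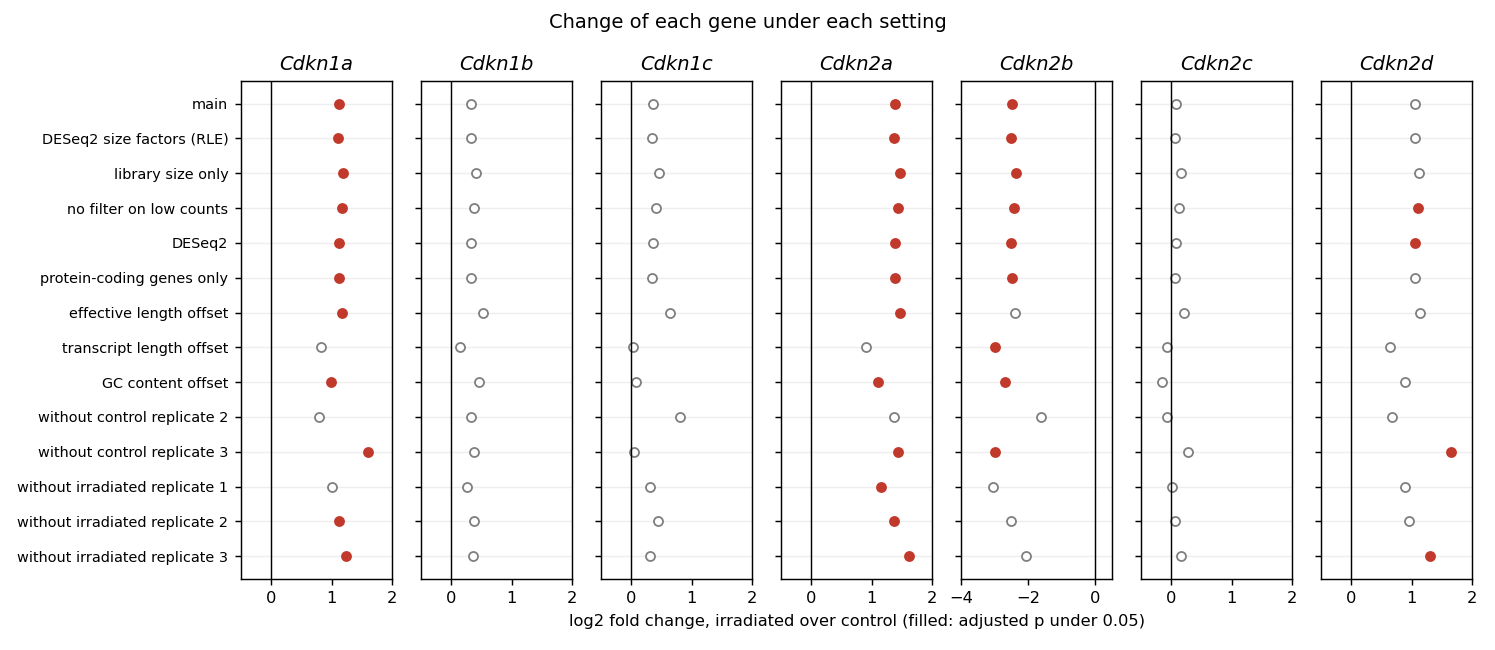
Log2 fold change of each CDK inhibitor gene, irradiated over control, in the reported test (top line) and with a processing choice changed (the replicate block not shown) or a library left out; filled red points have an adjusted p under 0.05. Cdkn1a, Cdkn2a and Cdkn2d stay above 0 and Cdkn2b below 0 at every setting shown, while the calls of all 4 come and go and Cdkn2c crosses 0.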

How the data were processed

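Bulk RNA sequencing of KP1 cells gave 2 control and 3 irradiated libraries, grouped by the sample labels. The authors quantified reads with Salmon against mm10 and deposited estimated counts and TPM per transcript; per the submitters' processing notes the versions were Salmon 0.8.2 and DESeq2 1.22.2. The annotation release, strand setting and Salmon's uncertainty are not given in the sources used here. The single-cell libraries were not analysed here.

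Transcripts were joined to GENCODE M21 (GRCm38; 112762 of 113116 matched, at least 99.87% of reads), summed to genes and rounded. The main test was edgeR 4.0.16 (R 4.3.3) (quasi-likelihood test) after filterByExpr and TMM, without a block, with p-values adjusted by Benjamini-Hochberg over 14106 genes; isoform shares used diffSpliceDGE. A gene was called at an adjusted p under 0.05, and a second count also required a log2 fold change past 1.5. Log2 CPM used a prior count of 2. Floors (3 reads) cover counting error only; confidence intervals come from edgeR's standard errors, which include the spread between libraries. Scripts were tested on simulated data. The tests of gene lists were counts and medians, with no set test.

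Named were the 7 genes, transcripts with at least 5% of their gene's TPM in a library, and the nearest protein-coding gene on each side. The 3 most similar tested genes, and from each list up to 4 called genes per direction by p, were named too. Cdkn1a-202, Cdkn1a-204 and Cdkn1c-204, below that share, and genes that overlap a member were named as well. The text says so where the values of another gene are given. The values of some single marker genes are not reported here. The members and lists were chosen with earlier results of these data known. Alternatives were DESeq2 1.42.0, other normalizations and filters, protein-coding genes only, effective length, transcript length and GC content offsets (splines with 5 degrees of freedom), the replicate block, and each library left out in turn. Leaving out a control leaves 1 control, which is then assumed to vary like the irradiated libraries. blastn 2.17.0 found no other gene's transcript at 95% identity over 80% of a member's main transcript. Python 3.11.15, pandas 2.3.3 and matplotlib 3.10.9 were used.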

Additional observations from a re-analysis of the deposited data

How the results depend on the processing

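Of the 15 alternatives run for each gene, Cdkn1b and Cdkn1c kept their direction and their side of the threshold in all 15, Cdkn2a in 12, Cdkn1a, Cdkn2c and Cdkn2d in 11 and Cdkn2b in 9. With the transcript length offset the log2 fold changes were 0.82 for Cdkn1a and 0.91 for Cdkn2a, neither past the threshold, and -0.078 for Cdkn2c, with 1 CDK inhibitor gene, 1188 genes in all and 5 list genes called. With the effective length offset Cdkn2b was at -2.41 (adjusted p = 0.0599), and with the GC content offset Cdkn2c was at -0.16. Cdkn2d was called without a filter on low counts (1.10) and by DESeq2 (1.06). Without the filter 2 transcripts were called, Cdkn1b-201 and Cdkn2a-202.

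Leaving out 1 library at a time gave log2 fold changes of 0.79 to 1.61 for Cdkn1a, 1.15 to 1.61 for Cdkn2a, -3.06 to -1.63 for Cdkn2b, -0.070 to 0.28 for Cdkn2c and 0.66 to 1.65 for Cdkn2d. The count of CDK inhibitor genes called ran from 0, without control replicate 2, to 4, the genes called in all from 270 to 4209, and the list genes called from 2 to 24. The share changes ran from -0.46 to 0.82 for Cdkn1c-202, from -0.43 to 0.30 for Cdkn1c-201 and from -0.19 to 1.89 for Cdkn1c-205, and the log2 fold change of Cdkn1c-201 from -0.10 to 1.28. Without the gene of the highest mean level over all 5 libraries, the summed difference was 0.45 for CIP/KIP (without Cdkn1b) and 0.021 for INK4 (without Cdkn2a, which in control cells was below Cdkn2c).

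Same-numbered libraries did not deviate together: the correlation of the 2 against 3 difference between the groups was -0.20 across 14106 genes. With the replicate block 1096 genes and 9 list genes were called; with the block and the length offset 280 genes, 3 list genes and 0 CDK inhibitor genes were called, with Cdkn1a at 0.73, Cdkn2a at 0.64, Cdkn2b at -3.54, Cdkn2c at -0.15 and Cdkn2d at 0.48. A block with crossed numbers, chosen after seeing the data, called 5696 genes and 42 list genes. The causes of these changes were not tested. With 2 control libraries that differ from each other in Cdkn1a, Cdkn2b and Cdkn2d, and 4 to 102 reads for Cdkn2b, differences of the size seen for Cdkn1b and Cdkn1c did not pass the test, which does not show that the levels were equal.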
